A study of Mus musculus with 6 samples.

Results

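Fgf4 encodes a fibroblast growth factor that mouse embryonic stem cells secrete and to which they respond themselves. Together with 9 genes of the response to its signal, it was followed on arrays of embryonic stem cells after knockdown of Trim71. The 10 genes are Fgf4, the inhibitors Spry2, Spry4, Spred1 and Spred2, the phosphatases Dusp4 and Dusp6, and the transcription factors Etv1, Etv4 and Etv5. They were chosen by name, as genes of the pathway, with earlier results of these data known. Each was found through the probe sets that carry its name and no other. All 10 were measured, by 13 of the 34760 probe sets, and stand among 19937 genes with a probe set of their own.

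The arrays came from mouse embryonic stem cells in culture, with 3 arrays of Trim71 knockdown cells and 3 of control cells. Per the labels' protocols, the knockdown used a mixture of 3 siRNAs against Trim71, controls of the transfection received a siRNA without a target, and cells were taken after 72 h. The control arrays carry the genotype label wild type, and whether those cells were transfected is not given in the sources used here, so the knockdown and the transfection itself cannot be told apart. The labels name no cell line, passage, medium or feeder layer, and do not say whether the 3 arrays of a group came from separate cultures. All values are log2 signals, in which a difference of 1 is a doubling.

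When an FGF binds its receptor at the cell surface, adaptor proteins activate RAS, which starts the kinase chain of RAF, MEK and ERK. ERK enters the nucleus and switches on genes of which many turn the signal down again. Sprouty and Spred proteins act at the level of RAS and RAF, and the phosphatases DUSP4 and DUSP6 take phosphate off ERK. ETV1, ETV4 and ETV5 are ETS-family transcription factors whose genes are induced by FGF signals in many tissues. In mouse embryonic stem cells, FGF4 and ERK move cells out of the naive state towards differentiation. In mouse neural progenitors, the TRIM71 protein is known to act on FGF signalling through SHCBP1, an adaptor-binding protein. The arrays ask how the transcripts of the pathway stood after knockdown of Trim71.

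The targeted transcript was checked first. Trim71 read 9.00, 8.95 and 8.98 on the knockdown arrays, against 10.48, 10.50 and 10.51 on the control arrays. It stood at 34.9% of the control level (95% confidence interval 32.4 to 37.5%), with a log2 fold change of −1.52 ± 0.045 (SE, n = 3 arrays a group, adjusted p = 2.8e-05 in limma). A two-sided exact permutation test of the arrays gave p = 0.1, the lowest value possible for 3 against 3. Median signals were 6.27 to 6.31 on the knockdown arrays and 6.26 on each control array. Knockdown array 3 lay farthest from its group, with a root mean square deviation of 0.17 from the group mean, against 0.12 to 0.15 on the other arrays. The 12 embryonic stem cell markers examined, among them Pou5f1, Sox2 and Nanog, lay above the median gene, with list means of 11.32 to 11.36 on the knockdown arrays and 11.28 to 11.30 on the control arrays. Zfp42 rose by 0.25 and Lin28a fell by 0.26 on the log2 scale, each called in only 1 of 6 fits with an array left out (adjusted p up to 0.105 and 0.0944), and the other 10 were not called. Of 11 fibroblast markers, which would show feeder cells, limma called 0, and 0 had an unadjusted p under 0.05. However, 9 of the 11 lay below the median gene, where a change of the transcript is understated. The means over those 11 were 5.57 to 5.73 on the knockdown arrays and 5.62 to 5.71 on the control arrays.

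The ligand was higher and the response genes went both ways after the knockdown. Fgf4 and Spred1 rose and Etv4 fell at an adjusted p under 0.05, by 1.17-fold to 1.24-fold. Of the 7 members that were not called, Dusp4 and Etv5 had a positive change and Spry2, Spry4, Spred2, Dusp6 and Etv1 a negative one. Etv1 and Etv5 each have a second probe set, and with those in place Etv1 fell too (−0.27 ± 0.049 SE, adjusted p = 0.0214) and the groups overlapped for Etv5. Over all 19937 genes 5.53% were called, 3.39% as higher and 2.15% as lower. The 3 calls among 10 members stand beside that share as a description. With an array left out, Fgf4 was called in 2 of 6 fits, and Spred1 and Etv4 in 1 each. With the replicate number as a block, or with all probe sets fitted together, 0 members were called. Knockdown and control arrays were fully separate for all 10 members through the probe sets used, which held for 25.5% of all genes. All 10 lie in the brighter part of the table, at or above the median gene, where such separation held for 38.3% of genes and 9.24% were called. An unadjusted p under 0.05 was reached by 9 members, all but Spred2, against 19.0% of all genes and 27.8% of the brighter ones. The median absolute change of the members was 0.21 on the log2 scale, against 0.07 over all genes and 0.08 over the brighter ones. Their median signed change was −0.12, against 0.0048 over all genes. Because the members were chosen with earlier results of these data known, these comparisons describe them and are no test of the pathway.

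**Figure D1:**
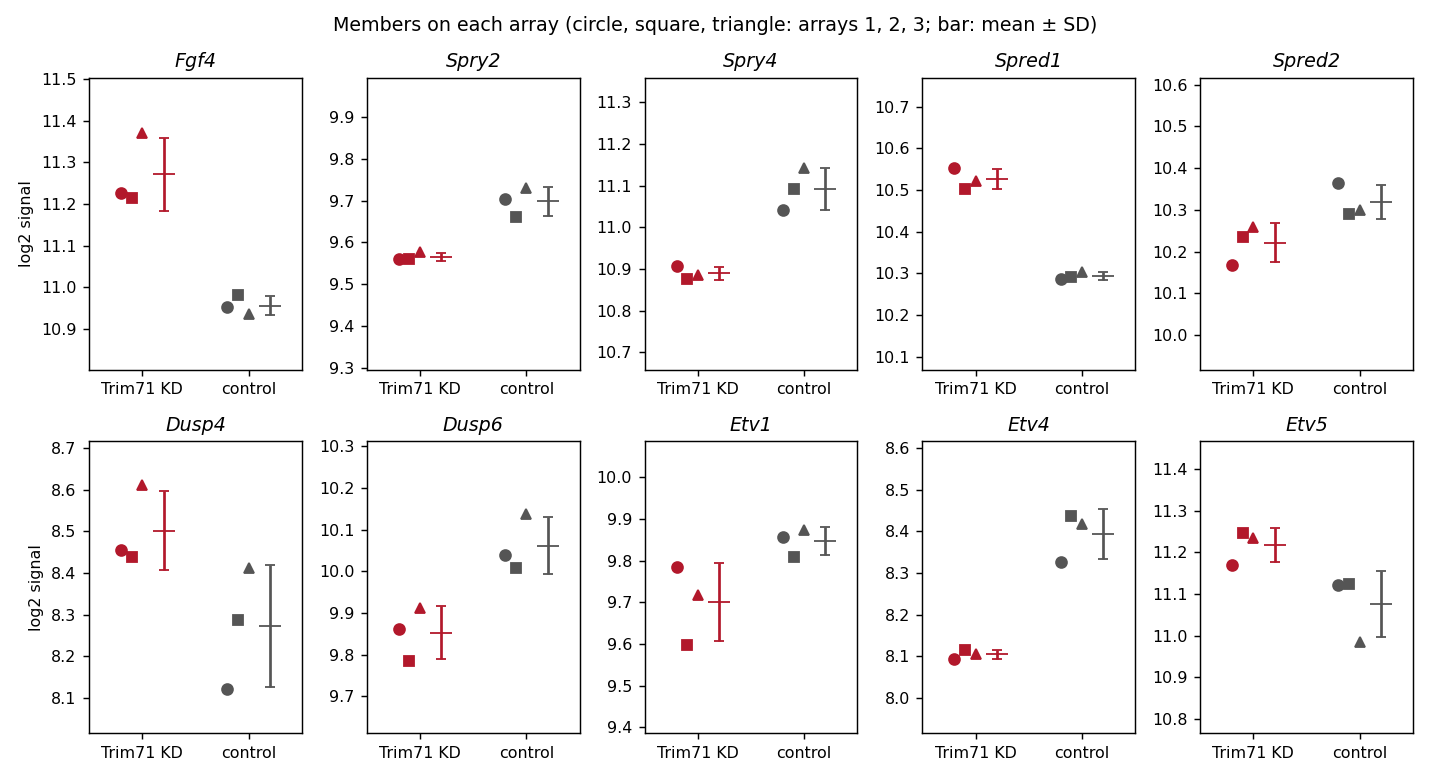
Log2 signal (y axis) of the 10 members on each of the 3 Trim71 knockdown arrays (left, red) and the 3 control arrays (right, grey), with the mean and SD of each group beside the points. Each panel has the same height in log2 units around its own middle, and in all 10 the points of the groups are separate, with Fgf4, Spred1, Dusp4 and Etv5 higher in the knockdown cells.

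**Figure D2:**
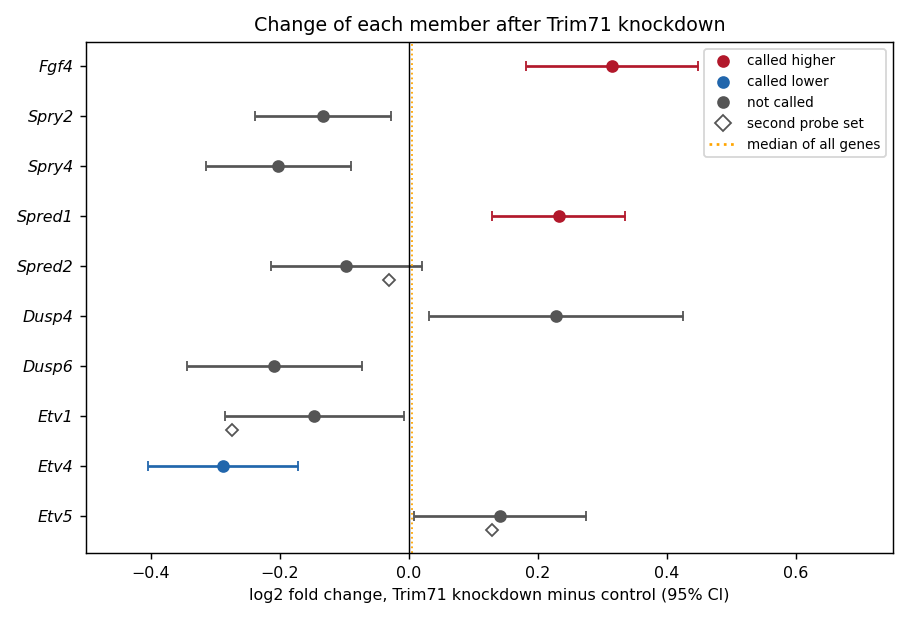
Log2 fold change of each member, Trim71 knockdown minus control, with the 95% confidence interval from limma (x axis). Filled points give the probe set used for the gene, red or blue where the adjusted p is under 0.05, open diamonds give the second probe set of Spred2, Etv1 and Etv5, and the dotted line gives the median of all genes. Fgf4 lies farthest to the right and Etv4 farthest to the left.

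The DNA before the start of Fgf4, Spred1 and Dusp6 is shown here because Fgf4 and Spred1 are the members that rose and Dusp6 encodes the phosphatase most tied to ERK itself. Each run is the 250 bases before the gene's start in the RefSeq promoter table, which held windows for 7 of the 10 members. All are on the + strand of build GRCm38.p6, at chr7:144861136-144861385 for Fgf4, chr2:117120821-117121070 for Spred1 and chr10:99262981-99263230 for Dusp6. Capitals mark the letters of 3 motifs on either strand, CGGAAG (an ETS core, the kind of site that ETV factors bind), GGGCGG (a GC box) and TATATA (letters of a TATA box).
Fgf4: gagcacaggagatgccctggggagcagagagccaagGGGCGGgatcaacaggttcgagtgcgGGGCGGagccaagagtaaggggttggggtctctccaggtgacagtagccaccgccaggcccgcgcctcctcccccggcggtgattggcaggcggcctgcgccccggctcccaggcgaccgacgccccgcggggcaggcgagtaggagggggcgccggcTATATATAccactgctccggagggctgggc
Spred1: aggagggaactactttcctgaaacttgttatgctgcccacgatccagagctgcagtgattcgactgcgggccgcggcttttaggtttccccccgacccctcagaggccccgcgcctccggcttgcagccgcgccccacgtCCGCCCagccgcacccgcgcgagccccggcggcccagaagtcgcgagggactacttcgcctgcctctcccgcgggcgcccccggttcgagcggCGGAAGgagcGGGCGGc
Dusp6: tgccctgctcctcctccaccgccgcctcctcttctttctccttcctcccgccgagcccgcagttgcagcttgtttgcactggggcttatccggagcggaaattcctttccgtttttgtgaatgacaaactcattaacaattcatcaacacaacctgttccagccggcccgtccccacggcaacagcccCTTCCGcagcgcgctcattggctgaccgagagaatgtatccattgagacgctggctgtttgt
The Fgf4 window held 2 matches of GGGCGG and 2 overlapping matches of TATATA, the nearer of which begins 28 bases before the start. It held 0 of CGGAAG. The Spred1 window held 1 CGGAAG match, 17 bases before the start, and 2 of GGGCGG, and the Dusp6 window held 1 CGGAAG match, on the opposite strand. Of all 32851 windows in the table, 13.6% held CGGAAG, 32.7% GGGCGG and 5.25% TATATA. Among the 9 windows of the 7 members, 3 held CGGAAG, 4 held GGGCGG and 1 held TATATA. In the Spred2 window the CGGAAG and GGGCGG matches overlap by shared bases. These matches describe letters in the windows and carry no measure of binding.

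Fgf4 is the growth factor through which embryonic stem cells stimulate their own ERK pathway. Its probe set 10559367 read 11.23, 11.22 and 11.37 on the knockdown arrays, against 10.95, 10.98 and 10.94 on the control arrays. Every knockdown array lay above every control array, and knockdown array 3 lay highest. The mean was 11.27 ± 0.087 in knockdown cells and 10.96 ± 0.023 in control cells (SD, n = 3 each). The log2 fold change was 0.31 ± 0.057 (SE), which is 1.24-fold, with a 95% confidence interval of 0.18 to 0.45 and an adjusted p of 0.0231 in limma. In bulk RNA, more cells that make Fgf4 and more Fgf4 RNA per cell cannot be told apart. The call held without knockdown array 1 (adjusted p = 0.0473) or 3 (0.0229), and was lost without knockdown array 2 (0.0616) or control array 1 (0.103), 2 (0.087) or 3 (0.0922).

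Genes were also compared with Fgf4 by their log2 profile over the 6 arrays, each centred on its own mean. Members, predicted and clone-numbered genes, small RNA genes and olfactory and vomeronasal receptor genes were left out. Of the remaining genes, the nearest were Eng, Grn, Cry2 and Mpzl2. Eng, which encodes the TGF-beta co-receptor endoglin, differed from Fgf4 by a root mean square of 0.0085. It read 8.79, 8.78 and 8.93 on the knockdown arrays, against 8.51, 8.54 and 8.52 on the control arrays. Grn, the gene of the secreted protein progranulin, lay at a distance of 0.013, the clock repressor gene Cry2 at 0.017, and Mpzl2, an adhesion protein gene, at 0.018. These distances describe 6 arrays on which knockdown array 3 read high for Fgf4 and for all 4 of these genes.

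The Sprouty proteins SPRY2 and SPRY4 block the path from receptor to RAS and RAF. Neither gene passed the threshold, and both read lower on every knockdown array than on any control array. Spry4 read 10.91, 10.88 and 10.89 on the knockdown arrays, against 11.04, 11.09 and 11.14 on the control arrays. Its log2 fold change was −0.20 ± 0.048 (SE), with a 95% confidence interval of −0.32 to −0.09 and an adjusted p of 0.0567. The knockdown arrays spanned 0.03, closer together than the control arrays, which spanned 0.10.

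Spry2 read 9.56, 9.56 and 9.58 on the knockdown arrays, against 9.70, 9.66 and 9.73 on the control arrays. Its log2 fold change of −0.13 ± 0.046 (SE) had an adjusted p of 0.159. Of the other Sprouty genes on the arrays, Spry1 stood at −0.16 ± 0.058 (SE, adjusted p = 0.191) and Spry3 at 0.11 ± 0.070 (SE, adjusted p = 0.463). Neither was called, and both are counted in the wider list of inhibitors further on.

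SPRED1 and SPRED2 bind neurofibromin, the RAS-inactivating protein, and bring it to the membrane. Spred1 read 10.55, 10.50 and 10.52 on the knockdown arrays, against 10.29, 10.29 and 10.30 on the control arrays. The control arrays spanned 0.02, and the gap between the groups was larger than the spread within either. Spred1 rose by 0.23 ± 0.044 (SE) on the log2 scale, which is 1.17-fold, with an adjusted p of 0.0275. The call held without knockdown array 3 (adjusted p = 0.0319) and was lost without knockdown array 1 (0.0765) or 2 (0.0813) or control array 1 (0.129), 2 (0.123) or 3 (0.0946).

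Spred2 read 10.17, 10.24 and 10.26 on the knockdown arrays, against 10.37, 10.29 and 10.30 on the control arrays. The groups were separate by a narrow gap, and the log2 fold change of −0.10 ± 0.050 (SE, adjusted p = 0.362) had an interval of −0.21 to 0.02. Its second probe set, 10374464, read 9.32, 9.44 and 9.47 on the knockdown arrays, against 9.42, 9.48 and 9.42 on the control arrays. There the groups overlapped and the change was −0.03 ± 0.059 (SE). Nf1, which encodes neurofibromin itself and belongs to the wider pathway, rose by 0.45 ± 0.062 (SE, adjusted p = 0.00963). It read 9.05, 9.23 and 9.22 on the knockdown arrays, against 8.68, 8.74 and 8.73 on the control arrays, and every knockdown array was above every control array. Its adjusted p stayed under 0.05 in 5 of the 6 fits that each drop an array and was 0.0589 in the other one, without control array 1.

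DUSP6 is a cytoplasmic phosphatase that acts on ERK, and DUSP4 is a nuclear phosphatase of ERK and related kinases. Dusp6 read 9.86, 9.78 and 9.91 on the knockdown arrays, against 10.04, 10.01 and 10.14 on the control arrays. Its log2 fold change was −0.21 ± 0.058 (SE), with an interval of −0.34 to −0.07 and an adjusted p of 0.0928. Every knockdown array lay below every control array, with a gap of 0.10, and the change did not pass over the whole table.

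Dusp4 read 8.46, 8.44 and 8.61 on the knockdown arrays, against 8.12, 8.29 and 8.41 on the control arrays. Its control arrays were the most spread of any member, with an SD of 0.15, and the highest of them was 0.03 below the lowest knockdown array. The log2 fold change of 0.23 ± 0.085 (SE) had an adjusted p of 0.194. Spred1 had a change of the same size with an SE of 0.044.

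ETV1, ETV4 and ETV5 form the PEA3 group of ETS factors, close relatives that carry FGF signals into transcription. Etv4 fell. It read 8.09, 8.12 and 8.11 on the knockdown arrays, against 8.33, 8.44 and 8.42 on the control arrays. The means were 8.10 ± 0.011 in knockdown cells and 8.39 ± 0.059 in control cells (SD, n = 3 each), a level of 81.9% of the control. The log2 fold change was −0.29 ± 0.050 (SE), with an interval of −0.40 to −0.17 and an adjusted p of 0.0197, the smallest among the members. The call held without knockdown array 3 (adjusted p = 0.0281) and was lost without knockdown array 1 (0.0559) or 2 (0.0725) or control array 1 (0.0581), 2 (0.0973) or 3 (0.0843).

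Etv1 read 9.78, 9.60 and 9.72 on the knockdown arrays through probe set 10406934, against 9.86, 9.81 and 9.87 on the control arrays. The change was −0.15 ± 0.060 (SE, adjusted p = 0.24). Its second probe set, 10395457, read 9.06, 9.07 and 9.04 on the knockdown arrays, against 9.27, 9.34 and 9.38 on the control arrays. That probe set was tighter and its change larger. With it in place of the other, Etv1 fell by 0.27 ± 0.049 (SE, adjusted p = 0.0214 over all genes), and fitted among all 34760 probe sets it had an adjusted p of 0.069. With the mean of its probe sets, Etv1 stood at −0.21 with an adjusted p of 0.051, just outside the threshold. The probe set with the higher mean signal was used for each gene, and for Etv1 that is the one with the smaller change.

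The annotation used does not give the position of a probe set, so it is not known whether 10406934 and the probe set 10363901 used for Etv5 read these genes or a related sequence elsewhere. Probe set numbers follow the genome in part. For 11 of the 13 probe sets of the members, at least 18 of the 20 probe sets with the nearest numbers belong to genes on the member's own chromosome in GRCm38.p6. For 10406934 and 10363901 it was 0 of 20, which held for 2.45% of the probe sets of all genes. The values of Etv1 and Etv5 are therefore given through both of their probe sets.

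Etv5 had a change of the opposite sign to Etv4 that did not pass the threshold. It read 11.17, 11.25 and 11.24 on the knockdown arrays through probe set 10363901, against 11.12, 11.12 and 10.98 on the control arrays. The change was 0.14 ± 0.057 (SE, adjusted p = 0.233). Probe set 10438626 read 9.71, 9.90 and 9.93 on the knockdown arrays, against 9.70, 9.78 and 9.68 on the control arrays. Its change was 0.13 ± 0.069 (SE, adjusted p = 0.379 in place of the other), and the groups overlapped there, with knockdown array 1 among the control arrays.

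The changes of close relatives were set side by side as the difference of their log2 signals on each array, for 6 pairs. In 4 of them the arrays of the groups did not overlap, which follows from the single genes, since in each of the 4 one gene read higher and the other lower on every knockdown array. Spred1 minus Spred2 was 0.33 ± 0.048 (SE) higher in knockdown cells, with a 95% interval of 0.20 to 0.46 from the pooled SD with 4 degrees of freedom. Dusp4 minus Dusp6 was 0.44 ± 0.072 (SE) higher, with an interval of 0.24 to 0.64. Among the ETS factors, Etv4 minus Etv5 differed by −0.43 ± 0.068 (SE, interval −0.62 to −0.24) and Etv1 minus Etv5 by −0.29 ± 0.097 (SE, interval −0.56 to −0.02). For each of these 4 pairs a two-sided exact permutation of the arrays gave p = 0.1, the lowest value this design allows, and 0.15 after adjustment over the 6 pairs, so no pair could pass a threshold of 0.05. Spry2 minus Spry4 differed by 0.07 ± 0.031 (SE, interval −0.02 to 0.15) and Etv1 minus Etv4 by 0.14 ± 0.076 (SE, interval −0.07 to 0.35), with overlapping arrays and an exact p of 0.2 for each. The intervals leave room for a difference in either direction within those 2 pairs. Through the other probe sets of Etv1 and Etv5, the difference was −0.42 ± 0.071 (SE) for Etv4 minus Etv5, −0.40 ± 0.083 (SE) for Etv1 minus Etv5 and 0.01 ± 0.020 (SE, interval −0.04 to 0.07) for Etv1 minus Etv4.

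**Figure D3:**
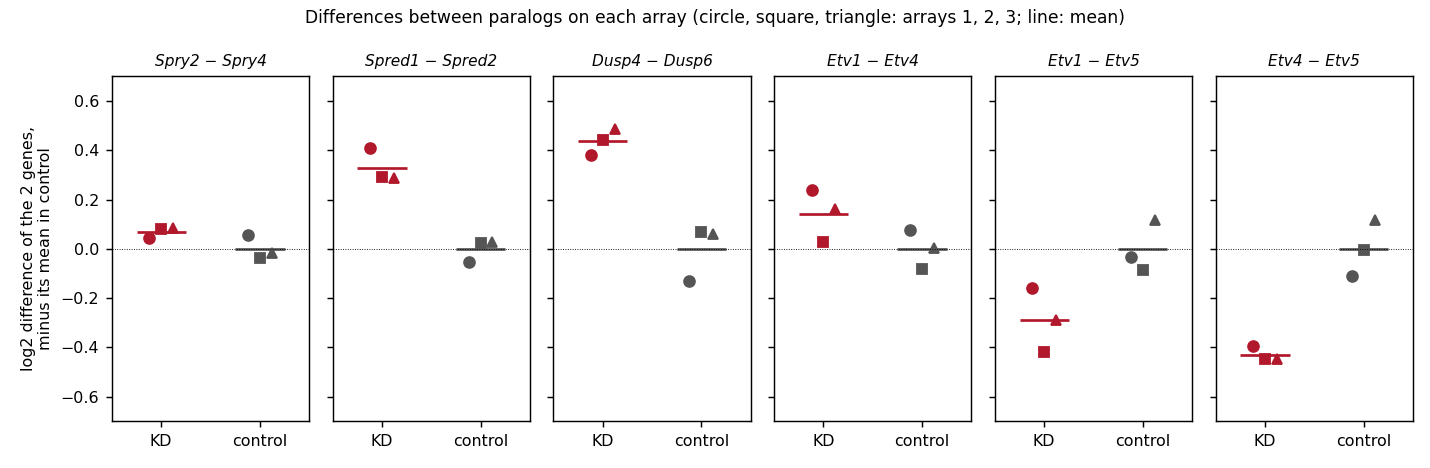
Difference of the log2 signals of 2 related genes on each array, minus its mean over the control arrays (y axis), for the 3 knockdown arrays (left, red) and the 3 control arrays (right, grey), with a line at each group mean. The groups are separate for Spred1 − Spred2, Dusp4 − Dusp6, Etv1 − Etv5 and Etv4 − Etv5, and overlap for Spry2 − Spry4 and Etv1 − Etv4.

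Beyond the members, 131 genes of the FGF and ERK pathway were listed by role and 121 of them measured. Of these, 12 rose and 7 fell, 15.7% of those measured, beside 5.53% of all genes and 9.24% of the brighter genes, to which 86 of the 121 belong. Their median change was 0.03 on the log2 scale. The lists too were chosen with earlier results of these data known, so these shares are a description. The shares of 5.53% of all genes and 9.24% of the brighter genes also stand beside the calls counted in each single list of pathway genes or markers. Without knockdown array 1, 2 or 3 the counts were 7 higher and 3 lower, 5 and 3, and 8 and 8. Without control array 1, 2 or 3 they were 3 and 3, 4 and 3, and 6 and 3. With each array left out in turn, 6 of the 19 called genes were called every time, Fgf17, Fgf18, Fgf10, Fgfr2, Egr1 and Dnmt3b, while 13 lost the call at least once, with Fgf13 reaching the highest adjusted p, 0.19.

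Among 21 other FGF ligands, 3 rose and 2 fell. Fgf17 and Fgf18, which belong with Fgf8 to one subfamily, had the largest increases of the ligands. Fgf17 read 7.94, 7.95 and 7.94 on the knockdown arrays, against 7.43, 7.37 and 7.32 on the control arrays, a change of 0.57 ± 0.049 (SE, adjusted p = 0.00191). Fgf18 read 7.88, 7.72 and 7.71 on the knockdown arrays, against 7.22, 7.18 and 7.13 on the control arrays, a change of 0.59 ± 0.061 (SE, adjusted p = 0.00352). In both, the groups were separated by more than the range within either.

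Fgf5, a ligand of the later epiblast, rose by 0.27 ± 0.053 (SE). Fgf10, a ligand from mesenchyme in organ development, had a change of −0.47 ± 0.054 (SE, adjusted p = 0.00541), and Fgf13, a member of the family that acts inside the cell, one of −0.22 ± 0.051 (SE). Fgf10 was dim, at 5.46, 5.37 and 5.36 on the knockdown arrays, against 5.86, 5.93 and 5.82 on the control arrays. Of the ligands that did not pass, Fgf15 stood at 0.31 ± 0.099 (SE, adjusted p = 0.131), Fgf1 at −0.17 and Fgf7 at 0.13. The 21 ligands include 14 below the median gene, where a change of the transcript is understated.

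Of 14 receptors and coreceptors, 2 rose and 1 fell. The receptors that embryonic cells use for FGF4, Fgfr1 and Fgfr2, were both higher. Fgfr1 read 9.84, 9.91 and 9.94 on the knockdown arrays, against 9.56, 9.56 and 9.65 on the control arrays, with a change of 0.30 ± 0.052 (SE, adjusted p = 0.0197). Fgfr2 read 7.24, 7.23 and 7.30 on the knockdown arrays, against 6.75, 6.81 and 6.73 on the control arrays, with a change of 0.49 ± 0.050 (SE, adjusted p = 0.00323). Gpc3, a cell-surface heparan sulphate proteoglycan, was at −0.28 ± 0.055 (SE, adjusted p = 0.0294). The proteoglycan gene Sdc4 at 0.19, Fgfr3 at 0.15 and the decoy receptor gene Fgfrl1 at −0.15 did not pass. Fgfr1 was called in 3 of 6 fits with an array left out, and its adjusted p reached 0.0997.

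Between receptor and RAS, 0 rose and 1 fell of 12 adaptors, with 5 at an unadjusted p under 0.05 (brighter genes 27.8%). Cbl, the ubiquitin ligase that takes activated receptors off the surface, stood at −0.31 ± 0.052 (SE, adjusted p = 0.0182). The RAS activator gene Sos1 at 0.22 (adjusted p = 0.0625), its relative Sos2 at −0.30 (adjusted p = 0.102) and the phospholipase gene Plcg1 at 0.16 did not pass. Shcbp1 read 8.66, 8.69 and 8.82 on the knockdown arrays, against 8.77, 8.69 and 8.67 on the control arrays. Its groups overlapped, and its change of 0.01 ± 0.059 (SE, adjusted p = 0.965) had an interval of −0.13 to 0.15.

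Of 14 genes from RAS to the kinases below ERK, Nf1 rose and Rps6ka3, which encodes the ERK-activated kinase RSK2, fell (−0.30 ± 0.064 SE, adjusted p = 0.0388). The MEK genes Map2k1 at 0.01 ± 0.050 (SE) and Map2k2 at 0.05 ± 0.052 (SE) had intervals of −0.10 to 0.13 and −0.07 to 0.17. Lamtor3, a MEK scaffold gene, at −0.15, Nras at 0.12 and Ywhaz, a 14-3-3 gene, at −0.06 did not pass.

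Of 16 further feedback inhibitors 1 rose and 0 fell, with 9 at an unadjusted p under 0.05 (all genes 19.0%, brighter genes 27.8%). The gene was Errfi1, whose product blocks EGF receptors, at 0.30 ± 0.050 (SE, adjusted p = 0.0167). The adaptor gene Sh2b3 at −0.23 (adjusted p = 0.061), Flrt3 at −0.27, which encodes a membrane protein that binds FGF receptors, and the phosphatase gene Dusp1 at 0.19 did not pass. The median of the 16 was 0.08 on the log2 scale.

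Of 19 early response genes, which ERK induces quickly, 3 rose and 1 fell. Klf10 at 0.27, Junb at 0.26 and the survival gene Mcl1 at 0.22 rose, and none of them was called in any of the 6 leave-one-out fits. Egr1, a zinc-finger factor induced through ERK and SRF, went the other way. It read 6.75, 6.61 and 6.67 on the knockdown arrays, against 7.15, 7.14 and 7.20 on the control arrays, with a change of −0.48 ± 0.054 (SE, adjusted p = 0.00483). Myc at −0.29, Jun at 0.24 and Ccnd1 at 0.16 did not pass. The median of the 19 was 0.09.

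Of 14 other ETS factors, Ets1 at 0.28 ± 0.051 (SE) and the repressor gene Etv3 at 0.31 ± 0.070 (SE) rose and 0 fell. An unadjusted p under 0.05 was reached by 6 of 14 (all genes 19.0%, brighter genes 27.8%). Elk4 at 0.39 ± 0.094 (SE, adjusted p = 0.0576), Ets2 at 0.34 ± 0.085 (SE, adjusted p = 0.0675) and Elk1 at 0.16 ± 0.044 (SE, adjusted p = 0.0804) did not pass.

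Of 11 lineage genes that depend on FGF signals, 0 rose and 1 fell. This was the DNA methyltransferase gene Dnmt3b, at −0.53 ± 0.062 (SE, adjusted p = 0.00573). An unadjusted p under 0.05 was reached by 3 of the 11 (all genes 19.0%, brighter genes 27.8%). Pou3f1 at 0.12, Eomes at −0.30 and the primitive endoderm regulator gene Gata6 at −0.23 did not pass. Eomes and Gata6 varied more among the arrays than the members did, with an SE of 0.12 and 0.10.

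Markers of other cell types were read on the same arrays. Of 10 primitive endoderm markers, 0 rose and 1, Lama1, fell (−0.29 ± 0.055 SE, adjusted p = 0.0265, called in 1 of the 6 leave-one-out fits), and the list means were 6.25 to 6.29 on the knockdown arrays and 6.30 to 6.40 on the control arrays. Of 10 trophoblast markers 1, Tfap2c, rose (0.53 ± 0.067 SE, adjusted p = 0.00723, called in 6 of those 6 fits), with list means of 7.70 to 7.78 on the knockdown arrays and 7.67 to 7.73 on the control arrays. Of 9 neural progenitor markers Nes rose (0.27 ± 0.063 SE, adjusted p = 0.0497), a call made in 0 of the 6 fits. Pax6 fell (−0.76 ± 0.090 SE, adjusted p = 0.00573) and was called in 6 of the 6. The list means were 6.72 to 6.75 on the knockdown arrays and 6.79 to 6.81 on the control arrays. The part of such cells in the changes of the members was not tested.

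**Figure D4:**
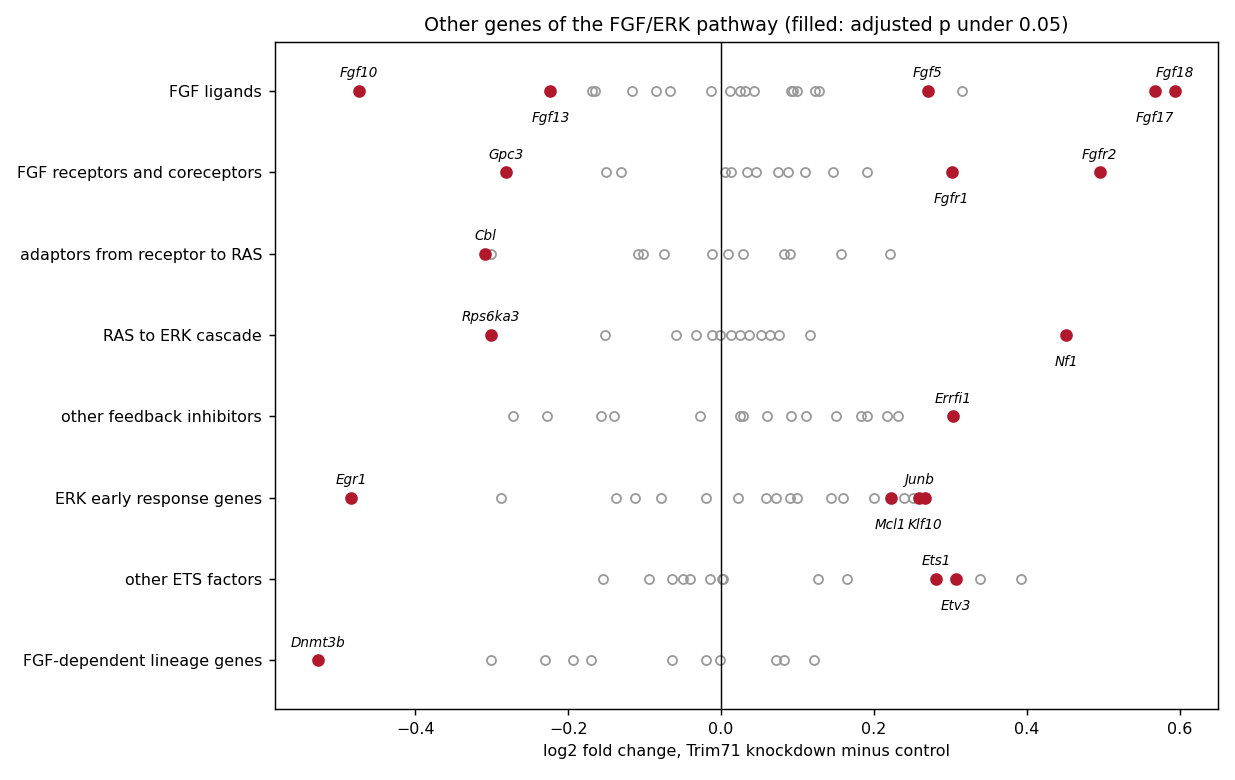
Log2 fold change, Trim71 knockdown minus control (x axis), of each measured gene in 8 lists of the FGF and ERK pathway outside the members (rows). Filled and named points have an adjusted p under 0.05, open points do not. Called genes lie on both sides of 0 in the lists of ligands, receptors, cascade and early response genes.

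The calls of the members varied among 15 alternative fits. Spred1 and Fgf4 were called in 8 of the 15, Etv4 in 7, Spry4 in 5, Dusp6 in 3, Spry2 in 2 and Etv5 in 1, while Spred2, Dusp4 and Etv1 were called in 0. The fit with the other probe sets of Etv1 and Etv5, added after the data were seen and not among the 15, called Etv1 as lower. With limma's trended and robust prior, 3 members were called higher and 4 lower, and with all 34760 probe sets fitted and adjusted over, 0 and 0. The lowest adjusted p of Dusp4 in any of the 15 was 0.0758, that of Etv1 was 0.051 and that of Spred2 was 0.126.

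**Figure D5:**
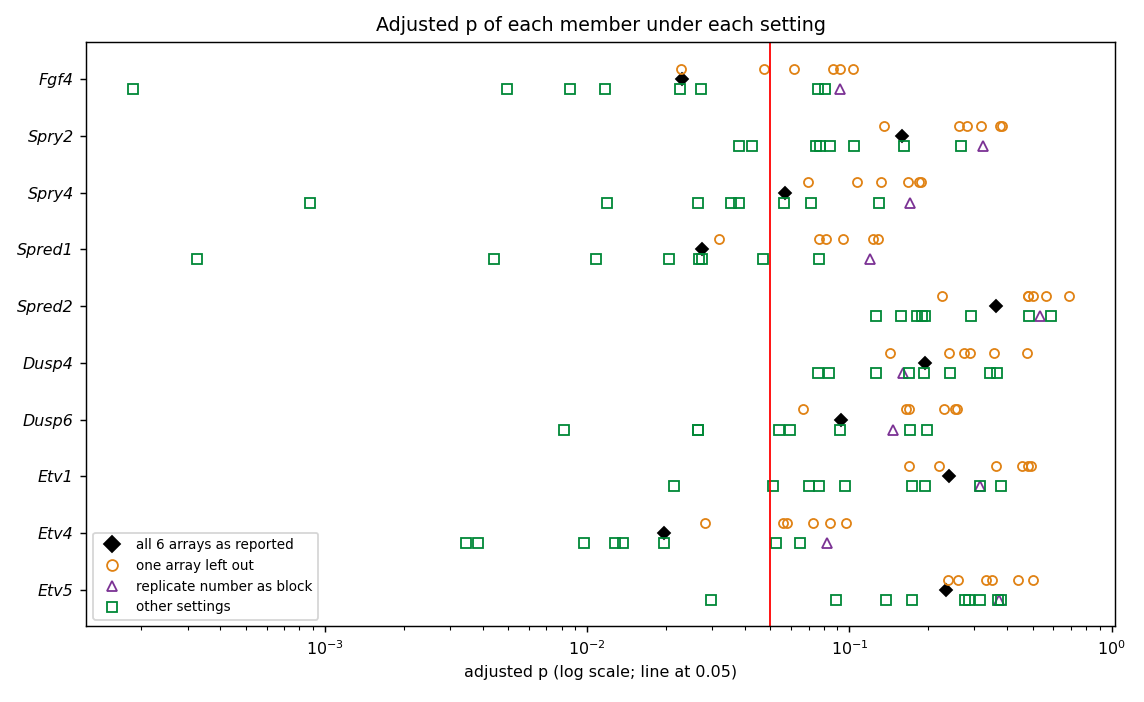
Adjusted p (x axis, log scale, line at 0.05) of each member (rows) in limma with all 6 arrays as reported (black diamonds), with 1 array left out (orange circles), with the replicate number as a block (purple triangles) and under the other settings (green squares). Fgf4, Spred1 and Etv4 have points on both sides of the line, while Spred2 and Dusp4 have all points to its right, and Etv1 has 1 point to its left, from its other probe set.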

How the data were processed

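RNA of mouse embryonic stem cells was hybridised to 6 Affymetrix arrays of 1 colour after amplification of 100 ng of total RNA, per the labels' protocols. The deposited series table holds log2 expression per probe set and array. RMA and the affy package were used by the authors, per the submitters' processing notes, with no version in the sources used here. RMA scales arrays to each other, so a shift common to most transcripts may not show, and upper quartiles still ranged from 8.32 to 8.42 between arrays. No detection call came with the values, dim probe sets understate a change, and the number of arrays limits the precision. The p-values of limma set the group difference against the spread between these arrays, moderated over all genes. That spread may be technical only.

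Names of probe sets came from the platform annotation at GEO. Of 34760, 21640 had 1 symbol, 1321 several and 11799 were unnamed here, and 21553 matched a RefSeq gene by Entrez identifier with 0 symbols changed. The 954 genes with several probe sets were each represented by the brightest on average, leaving 19937 genes. Group was the only term in limma 3.58.1 (R 4.3.3, lmFit and eBayes), with Benjamini-Hochberg adjustment over all genes and a call at an adjusted p under 0.05. Single values were tested by exact permutation (scipy 1.17.1, Python 3.11.15). The fit was tested on simulated data, where of 200 changed genes among 19937 it recovered 77% at 1.5-fold and 96% at 2-fold. All 10 members changed by less than 1.5-fold, sizes that were not simulated.

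Named genes are the members, Trim71, each list's called genes and up to 3 more by test statistic. Certain pathway genes are always named, of which Fgfr1, Fgfr2, Shcbp1, Map2k1 and Map2k2 are reported here. The 4 genes nearest Fgf4, among those not left out by the name filter given above, are named too. Spry1 and Spry3 are named in addition, as the other Sprouty genes. The members and lists were chosen with earlier results of these data known, and the promoter motifs and windows printed after values were seen. Alternatives were the replicate block, each array left out, the brighter genes, another prior, array weights, probe set means, other scalings, no moderation, and all probe sets. The other probe set of Etv1 and Etv5 was added after seeing the data.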

Additional observations from a re-analysis of the deposited data

How the results depend on the processing

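Trim71 kept its direction and call in all 15 alternatives, from −1.51 to −1.55. Of 150 alternative values of the members, 117 kept their side of the threshold, 22 lost the call and 11 gained it. With an array left out or with probe set means, the 6 paralog differences moved by less than 1 SD. The replicate block leaves these differences the same by design, and they were not computed under the remaining alternatives. Counts are given as higher and lower. With an array left out, 148 to 603 and 101 to 699 genes were called, 0 to 2 and 0 to 1 members, and 3 to 8 and 3 to 8 pathway genes. The array numbers are shared by the groups, and whether they pair the arrays is not given in the sources used here. Deviations from the group mean correlated at −0.073, −0.052 and −0.22 between same-numbered arrays. Of the 6 arrays, 0 correlated best with their own number. These values showed no pairing by number, but with 3 arrays a group they cannot decide it. With the replicate block, 171 and 108 genes, 0 and 0 members, and 4 and 3 pathway genes were called. Among the brighter genes alone, of which there are 9969, 1124 and 766 were called, 2 and 4 members, and 20 and 10 pathway genes. The trended and robust prior called 1213 and 854 genes, 3 and 4 members, and 21 and 11 pathway genes, and array weights called 1114 and 1058 genes, 2 and 3 members, and 18 and 15 pathway genes. Fits without moderation called 271 and 142 genes, 1 and 0 members, and 5 and 4 pathway genes. All probe sets fitted together and adjusted over, which changes the variance prior too, gave 198 and 113 genes, 0 and 0 members, and 4 and 3 pathway genes. Repeated quantile normalization gave 779 and 763 genes, 2 and 2 members, and 12 and 9 pathway genes. Arrays centred on their medians gave 527 and 616 genes, 2 and 2 members, and 8 and 8 pathway genes, with the median gene at −0.026 in place of 0.0048. The other probe sets of Etv1 and Etv5, chosen after seeing the data, gave 675 and 430 genes and 2 and 2 members, and moved Etv1 minus Etv4 to 0.0149. The cause of these shifts was not tested beyond what each setting changes.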
